A study of Saccharomyces cerevisiae with 6 samples.

Results

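The subject is a set of 9 yeast genes whose proteins hold, sort or take apart aggregated protein, or drive the Hsp70 cycle that does so: HSP104, HSP42, HSP26, BTN2, CUR1, SIS1, YDJ1, APJ1 and FES1. They were chosen by name, with earlier results of these data known, and all 9 were found among the 7127 identifiers of the count table. All 9 passed the filter on low counts, among 6220 genes tested.

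The libraries were polyA RNA of Saccharomyces cerevisiae, haploid MATa cells of the S288c background grown in the rich medium YPD. Both groups carry the same genotype label. It lists trp1::TetO:TRP1 and lys4::LacO:hphNT1, the operator arrays, then his3::LacR-GFP:HIS3 and TetR-mCherry, which bind them, leu2::Cre-EBD78:LEU2, ade2, and a cassette on the septin gene Shs1, where loxPmCherry with Cln2(3'UTR) and the marker NatNT2 is followed by another loxP and GFP. The group mCh* (3 libraries) was collected at 0 min, and the group mCh- (3 libraries) at 180 min after 1 µM beta-estradiol, which lets the Cre fusion remove the mCherry sequence. Time in culture, hormone, Cre activity and the reporter allele change together between the groups and cannot be told apart. The libraries came from 3 independent experiments per the labels and held 25,987,900 to 34,032,212 counts each. The MATa genes MFA1, MFA2, STE2, BAR1, STE6 and AGA2 lay between 85.6 and 821 CPM (counts per 1000000 of the library size, with edgeR's TMM composition factors) over the 6 libraries. The MATalpha pheromone genes MF(ALPHA)1 and MF(ALPHA)2 stayed at or below 0.615 CPM, and the MATalpha genes STE3 and SAG1 lay at 4.21 to 6.81 and 15.2 to 18.2 CPM. MFA1 and MFA2 were themselves lower at 180 min in all 3 libraries (158 to 226 against 453 to 609 CPM, and 319 to 483 against 678 to 821 CPM). STE2 (509 to 605 against 628 to 695 CPM) and STE6 (349 to 392 against 446 to 538 CPM) were lower too. For BAR1 and AGA2 the groups overlapped.

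Proteins that unfold tend to clump, and yeast handles the clumps with a chain of factors. Small heat shock proteins bind unfolding proteins and pack them into assemblies, sorting factors gather these at set places in the cell, J-domain proteins hand them to Hsp70, and Hsp104, a ring-shaped ATPase, pulls single chains out of the clump. Nucleotide exchange factors then make Hsp70 release its client. Many of these genes are known targets of the heat shock factor Hsf1, and some of the general stress factors Msn2 and Msn4.

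At 180 min the disaggregase gene, both small heat shock genes, both sorting factor genes and the J-domain genes SIS1 and APJ1 were higher than at 0 min. YDJ1, the most abundant of the 9 transcripts per kb at 0 min, was lower, and FES1 was not called. Of the 9, 7 rose, 1 fell and 1 was not called, where a call is an adjusted p below 0.05 (edgeR, quasi-likelihood test, Benjamini-Hochberg over the 6220 genes). Over all genes tested 29.5% were called higher and 28.2% lower, 57.7% in all (1833 and 1754 genes, or 2996 and 969 with library sizes only and no composition factors). At least 2-fold rises were called for 4 of the 9, against 4.60% of all genes tested. The median log2 fold change was 0.89 for the 9 genes and 0.02 for all genes tested. The summed share of the 9 genes in the library was 0.142 ± 0.0134% (SD, n = 3) at 0 min and 0.350 ± 0.0101% later, with all 3 libraries of 180 min above all 3 of 0 min (exact permutation test, two-sided, p = 0.10, the smallest that 3 against 3 allows).

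The heat shock element, the binding motif of Hsf1, is an array of alternating GAA and TTC units, and the stress response element of Msn2 and Msn4 is AGGGG. The letters searched, on both strands of the 500 bases before each start codon in the R64 genome (RefSeq), were GAANNTTC for 2 units, the same with TTCNN before it or NNGAA after it for 3 units, and AGGGG. Units of the 3-unit motif contain the 2-unit motif. A 3-unit heat shock element stood before 5 of the 9 genes and 1.48% of 6000 nuclear protein-coding genes, and a 2-unit one before 6 of the 9 and 19.2%. AGGGG stood before 4 of the 9 and 34.1%, and the proteasome element GGTGGCAAA of Rpn4 before 0 of the 9 and 1.65%. Stretches of 30 bases with these matches are shown because the genes that moved most differ in which letters they hold. They read 5′ to 3′ on the strand of the gene, with the matched letters in capitals, and joined heat shock elements are shown as 1 run.
HSP104, heat shock element: atatttTTCCAGAATTTTCTAGAAgggtta
HSP42, heat shock element: taaaagTTCTGGAAGGTTCGCGAAttgaga
BTN2, heat shock element: ttttttTTCTAGAAAGTTCCGGAAaattgc
SIS1, heat shock element: tatGAACGTTCCAGAAACTTCTGGAAaaag
FES1, heat shock element: ttggactgGAATCTTCTGGAAgttttttgg
CUR1, 2 units only: tagaaaaaaggGAACTTTCctactcaaaag
HSP104, stress response element: aaacgttccataAGGGGccgcgattttttt
HSP42, stress response element: ctgctcAGGGGcgaatacAGGGGcggcctt
HSP26, stress response element, opposite strand: gtaCCCCTaactccgtgtgtaCCCCTaaag
APJ1, stress response element, opposite strand: gaCCCCTtttaagtaggtaacccCCCCTgg

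In R64 coordinates the heat shock stretches lie at chrXII:88315-88344 (plus strand) for HSP104, chrIV:806372-806401 (plus) for HSP42, chrVII:772104-772133 (plus) for BTN2, chrXIV:619883-619912 (minus) for SIS1, chrII:444843-444872 (minus) for FES1 and chrXVI:843063-843092 (plus) for CUR1. The stress response stretches lie at chrXII:88359-88388 for HSP104, chrIV:806403-806432 for HSP42, chrII:381548-381577 for HSP26 and chrXIV:480980-481009 for APJ1, all upstream of genes on the plus strand. HSP104 and HSP42 each held both kinds of element, a combination found before 29 of the 6000 genes (0.483%), with 3 AGGGG matches each. HSP26 held 3 AGGGG matches and APJ1 held 2, and neither matched the heat shock letters that were searched. SIS1 had the longest heat shock run, 23 bases, against 18 in HSP104, HSP42 and BTN2 and 13 in FES1. Before YDJ1 none of the letters searched was found. These are matches of letters, and no binding was measured.

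**Figure D1:**
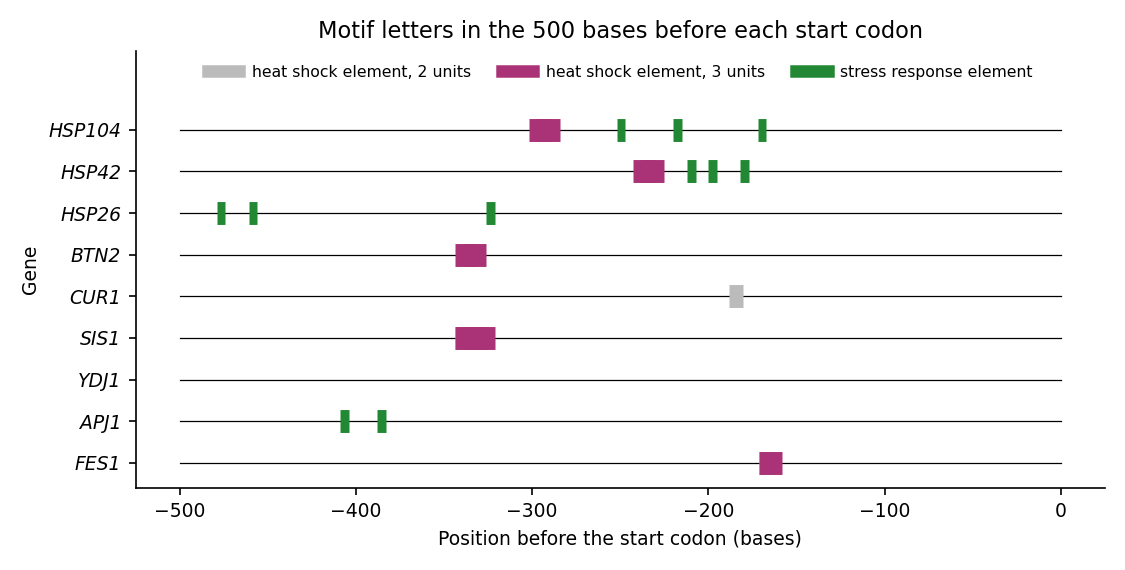
Matches to the motif letters (coloured boxes, to scale) in the 500 bases before the start codon of each gene, with position in bases on the horizontal axis and 0 at the start codon. HSP104 and HSP42 hold a heat shock element followed by 3 stress response elements, and YDJ1 has no match to the letters searched.

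HSP104 (YLL026W, chromosome XII, 88623 to 91349, 1 coding exon) encodes the disaggregase, a protein of 908 residues with 2 nucleotide-binding motifs, which start at residues 212 and 614 of the translated gene. Its CPM were 363, 435 and 564 in mCh* replicates 1, 2 and 3 and 1585, 1532 and 1659 in mCh- replicates 1, 2 and 3. The 3 libraries of 180 min lay close together, and the lowest was well above the highest of 0 min, where replicate 3 stood above the others. The rise was 3.51-fold (95% interval 2.90 to 4.24, adjusted p = 2.72e-08 in edgeR), or 1.81 ± 0.13 in log2 units (SE). HSP104 alone made up 29.1 ± 4.17% of the counts of the 9 genes at 0 min and 49.7 ± 1.32% at 180 min (SD, n = 3). Without HSP104 the other 8 genes held 0.10 ± 0.0040% of the library at 0 min and 0.176 ± 0.00847% later (SD, n = 3). Per kb of coding sequence, its level ranked 1092 of 5715 tested protein-coding genes at 0 min and 330 at 180 min.

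The small heat shock genes HSP42 and HSP26 both rose. HSP42 (YDR171W, chromosome IV, 806621 to 807748) encodes the small heat shock protein that is active in unstressed cells and gathers misfolded protein in the cytosol. It had 106, 119 and 135 CPM in the mCh* replicates and 318, 335 and 330 CPM in the mCh- replicates, so the groups lay far apart and the later one was tight. The rise was 2.73-fold (95% interval 2.39 to 3.13, adjusted p = 8.80e-09 in edgeR). HSP26 (YBR072W, chromosome II, 382030 to 382674) encodes the small heat shock protein whose chaperone activity is switched on by heat. It was scarce at 0 min, with 13.0, 16.1 and 14.5 CPM, and reached 58.5, 57.8 and 65.7 CPM at 180 min. Of the 9 genes HSP26 had the largest fold change, 4.17-fold (95% interval 3.57 to 4.86, adjusted p = 1.18e-09 in edgeR), and ranked 35 by log2 fold change among the 6220 genes. The ratio of HSP42 to HSP26 per length was 4.66, 4.22 and 5.30 in the mCh* libraries and 3.10, 3.31 and 2.87 in the mCh- libraries. HSP42 thus stayed the more abundant transcript in all 6 libraries, by a smaller factor in each library of 180 min.

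BTN2 (YGR142W, chromosome VII, 772454 to 773686) and CUR1 (YPR158W, chromosome XVI, 843262 to 844020) are paralogs. Btn2 gathers misfolded protein at sites of deposit, and Cur1 helps carry Sis1 into the nucleus. Their translated sequences of 410 and 252 residues were identical at 30.3% of 251 aligned positions. BTN2 had 53.3, 68.3 and 64.7 CPM at 0 min and 152, 188 and 237 CPM at 180 min. The groups did not overlap, but relative to the mean the mCh- libraries spread more than for the other 8 genes, with an SD of 42.7 CPM around a mean of 193 CPM. The rise of BTN2 was 3.10-fold (95% interval 2.54 to 3.79, adjusted p = 1.09e-07 in edgeR). CUR1 had 29.4, 25.8 and 25.0 CPM at 0 min and 43.3, 45.0 and 47.6 CPM at 180 min. It rose 1.70-fold (95% interval 1.47 to 1.95, adjusted p = 6.63e-06 in edgeR). Per length BTN2 exceeded CUR1 by 1.12, 1.63 and 1.59 times in the mCh* libraries and by 2.17, 2.58 and 3.07 times in the mCh- libraries. Every library of 180 min was above every library of 0 min in this ratio, with mCh* replicate 1 lowest.

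J-domain proteins stimulate the ATPase of Hsp70 through a short His-Pro-Asp motif, whose letters a search found at residue 34 in the translations of SIS1, YDJ1 and APJ1 alike. The same letters also occur in HSP104 (residue 692) and SSE1 (residue 78), which encode no J-domain. All 3 genes lie on chromosome XIV. SIS1 (YNL007C, 618507 to 619565) encodes an essential J-domain protein that works with Hsp104 and in prion propagation. It had 169, 191 and 218 CPM at 0 min and 339, 380 and 351 CPM at 180 min, with the groups well apart. SIS1 rose 1.85-fold (95% interval 1.61 to 2.14, adjusted p = 1.42e-06 in edgeR). YDJ1 (YNL064C, 505868 to 507097) encodes the abundant general J-domain protein of the cytosol, identical to Sis1 at 46.3% of 268 aligned residues. It had 455, 492 and 442 CPM at 0 min and 352, 369 and 401 CPM at 180 min. All 3 libraries of 180 min lay below those of 0 min. As a ratio, though not in CPM, the margin was smaller than for every gene called higher. YDJ1 changed 0.808-fold (95% interval 0.712 to 0.915), which is -0.31 ± 0.08 in log2 units (SE, adjusted p = 0.00581 in edgeR). With library sizes only, without composition factors, it was at -0.06 and not called (adjusted p = 0.558 in edgeR). Under that setting the median gene tested sits at 0.27, a shift of 0.25. Such a change of scaling moves all genes by nearly the same amount. YDJ1 lay below the median gene, a place that the change of scaling could not alter. As a raw share of the library YDJ1 took 0.0424 ± 0.00188% and 0.0408 ± 0.00217% (SD, n = 3, exact permutation p = 0.40).

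APJ1 (YNL077W, 481391 to 482977) encodes a J-domain protein that acts on aggregates in the nucleus, with 528 residues the longest of the 3. Its mean per kb was the lowest of the 9 at both times, with 39.4, 30.6 and 31.2 CPM at 0 min and 51.5, 55.6 and 56.3 CPM at 180 min. It rose 1.62-fold (95% interval 1.39 to 1.88, adjusted p = 3.56e-05 in edgeR). In mCh* replicate 1 APJ1, CUR1 and, by a small margin, FES1 stood highest of the 0 min libraries. HSP104, HSP42, HSP26, BTN2 and SIS1 stood lowest in that same library.

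FES1 (YBR101C, chromosome II, 443821 to 444693) encodes a nucleotide exchange factor that releases Hsp70 from misfolded clients so that these can be degraded. It had 185, 183 and 178 CPM at 0 min and 201, 190 and 216 CPM at 180 min, so the groups did not overlap but came close. Its log2 fold change of 0.15 ± 0.08 (SE) was not called (adjusted p = 0.104 in edgeR), and the 95% interval of the ratio ran from 0.992 to 1.25. With library sizes only FES1 was called higher, at 0.41 (adjusted p = 0.000259 in edgeR), on a scale where the median gene sits 0.25 higher. Removing the dependence on length and GC also put it past the threshold, at 0.21 (adjusted p = 0.0220 in edgeR). In CPM with composition factors, groups without overlap were found for all 9 genes, 8 higher and 1 lower. Over all genes tested the shares were 63.4% in either direction and 32.7% higher. As raw shares of the library, the YDJ1 groups overlapped (0.0411 to 0.0446% at 0 min, 0.0387 to 0.0430% at 180 min).

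**Figure D2:**
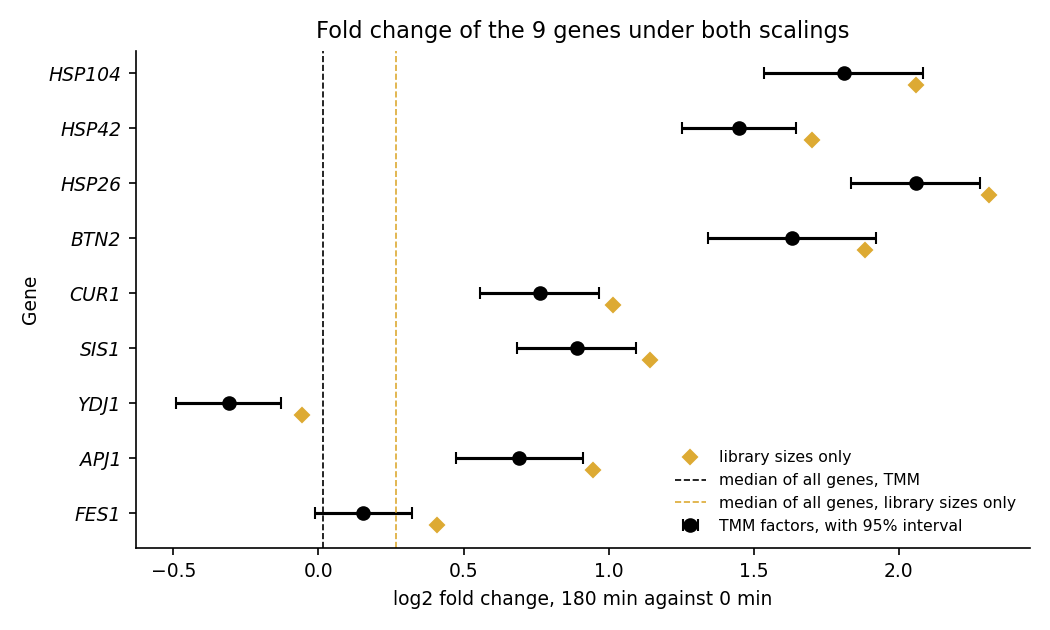
Log2 fold change of 180 min against 0 min (horizontal axis) for each of the 9 genes: black points with 95% intervals use TMM composition factors, yellow diamonds use library sizes only, and dashed lines mark the median of all genes tested under each. HSP26 has the largest value, 2.06, and only YDJ1 has an interval wholly below 0.

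Beside these changes, the share of counts in ribosomal protein genes was 33.1 ± 0.398% (SD, n = 3) in the mCh* libraries and 21.0 ± 0.150% in the mCh- libraries. With composition factors computed without ribosomal protein genes, HSP104 was at 1.79, HSP26 at 2.04, SIS1 at 0.87 and YDJ1 at -0.33 in log2 units, and the 9 genes again held 7 higher calls and 1 lower call. Read sharing was examined only through sequence and RefSeq positions. No stretch of 50 bases in any of the 9 coding sequences occurred elsewhere in the R64 genome. No other gene annotated in RefSeq overlapped any of them. The 1039 counted identifiers without a RefSeq match were not checked for overlap.

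Levels were compared between genes per kb of coding sequence. At 0 min YDJ1 led with 377 ± 21.3 CPM per kb, followed by FES1 (208 ± 3.67), SIS1 (182 ± 23.1), HSP104 (167 ± 37.4) and HSP42 (106 ± 12.6 CPM per kb, SD, n = 3). BTN2 (50.4 ± 6.36 CPM per kb), CUR1 (35.2 ± 3.08), HSP26 (22.6 ± 2.37) and APJ1 (21.2 ± 3.09) followed. The ranges of FES1 and SIS1, of SIS1 and HSP104, and of HSP26 and APJ1 overlapped, so these neighbours were not apart beyond their spread. At 180 min HSP104 led with 584 ± 23.3 CPM per kb, ahead of SIS1 (337 ± 19.9), YDJ1 (304 ± 20.4), HSP42 (291 ± 8.03) and FES1 (232 ± 15.2 CPM per kb, SD, n = 3). BTN2 was at 156 ± 34.7 CPM per kb, HSP26 at 94.1 ± 6.79, CUR1 at 59.6 ± 2.84 and APJ1 at 34.3 ± 1.64. SIS1 and YDJ1, and YDJ1 and HSP42, overlapped with each other at this time, and the other neighbours were apart. HSP104 thus went from place 4 to place 1, and HSP26 passed CUR1.

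**Figure D3:**
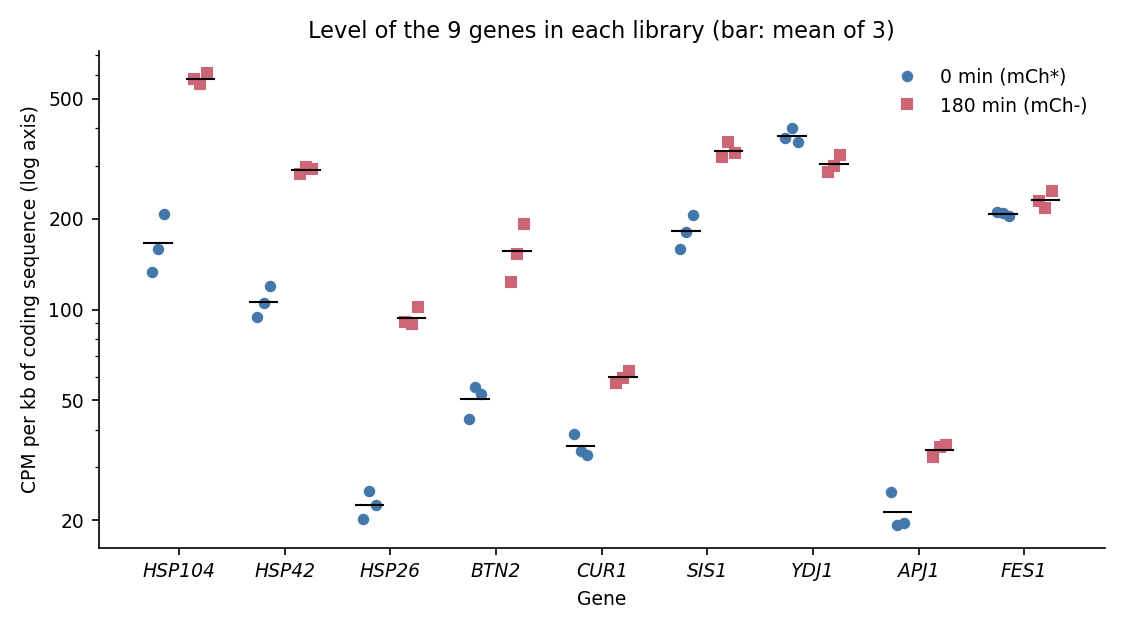
CPM per kb of coding sequence (log axis) of the 9 genes in each library, with circles for 0 min (mCh*), squares for 180 min (mCh-) and a bar at the mean of 3. HSP104 goes from 167 to 584 CPM per kb while YDJ1 goes from 377 to 304. No gene has overlapping groups on this scale, which uses composition factors.

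A ratio of 2 genes within a library does not depend on the scaling between libraries. Of 6 pairs, 5 had ratios that did not overlap between the times, each with an exact permutation p of 0.10 (two-sided), the smallest that 3 against 3 allows, and 0.12 after adjustment over the 6. None of these can pass 0.05 in this design. The largest shift was in SIS1 to YDJ1, which was 0.430, 0.451 and 0.572 per length in the mCh* libraries and 1.12, 1.19 and 1.02 in the mCh- libraries. In this pair SIS1 was below YDJ1 in every library of 0 min and above it in every library of 180 min, a 2.31-fold change of the ratio. BTN2 to CUR1 changed 1.81-fold, HSP42 to HSP26 0.657-fold and HSP104 to HSP42 1.30-fold. FES1 to SSE1, the Hsp110 gene whose protein is the main exchange factor of cytosolic Hsp70, changed 1.5-fold, from a geometric mean of 0.588 to 0.881. APJ1 to SIS1 did not separate the times, with a log2 difference of -0.20 (exact permutation p = 0.70). For that pair mCh* replicate 1, at a ratio of 0.156, stood apart from the other 5 libraries, at 0.0957 to 0.107.

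**Figure D4:**
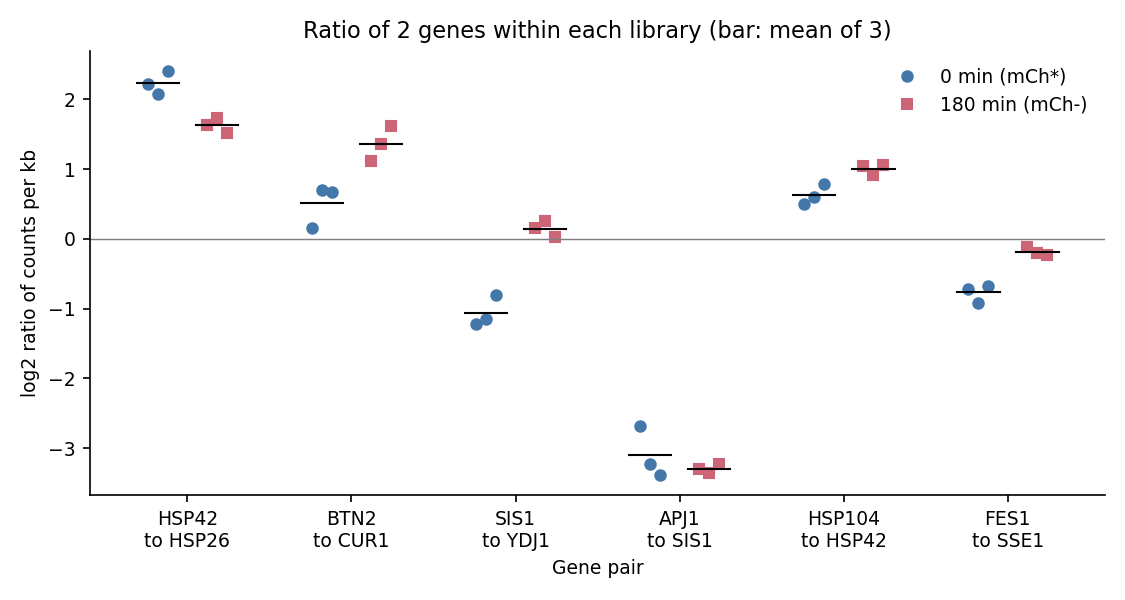
Log2 ratio of counts per kb between 2 genes within each library for 6 pairs, with circles for 0 min, squares for 180 min and a bar at the mean of 3. In 5 pairs the times do not overlap, and SIS1 to YDJ1 moves from below 0 to above 0.

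Likeness of profile was described by the root mean square distance between centred log2 CPM over the 6 libraries, among the 5735 genes averaging 50 counts or more. Nearest to HSP104 were YRO2 (distance 0.12), a membrane protein gene, and the glutamate decarboxylase gene GAD1 (0.13), and nearest to HSP42 were YDC1 (0.06), a ceramidase gene, and UGA2 (0.06), a gene of the same pathway as GAD1. HSP26 was closest to SSE2 (0.06), the stress-induced twin of SSE1, and to SOL4 (0.11), a gene of the pentose phosphate pathway. BTN2 was closest to CIP1 (0.13) and to the Hsp90 gene HSP82 (0.15). For CUR1 they were the mitochondrial copper protein gene SCO2 (0.02) and MET3 (0.03) of sulfate assimilation, and for SIS1 YGR126W (0.06) and the cell wall glucan gene KRE5 (0.07). For YDJ1 they were ARD1 (0.02), of an N-terminal acetyltransferase, and OLA1 (0.03), and for FES1 MIC27 and OSW7 (0.03 each). APJ1 was the only one of the 9 whose nearest gene was itself in the set, CUR1 at 0.06, with SCO2 next at 0.07. Among the 9, HSP42 and BTN2 were nearest to each other (0.20), as were HSP104 and HSP26 (0.20).

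The related lists were chosen with earlier results of these data known, and their medians stand beside 0.02 for all genes tested. The calls in every list, with composition factors, stand beside 29.5% higher and 28.2% lower over all genes tested. With library sizes only, 2996 of the 6220 genes tested were called higher and 969 lower. Higher calls then numbered 5 of 9 and 7 of 10 in the next pair of lists and 4 of 7 among Hsp70 genes. They numbered 11 of 13 among ubiquitin ligase genes, with 1 lower, and 7 of 8 among regulators. Exchange factor genes had 4 higher and 1 lower, and prion protein genes 2 higher and 1 lower. Changes of single genes below are in log2 units. Of 9 other J-domain genes of the cytosol and nucleus, 2 rose and 3 fell, with a median log2 fold change of 0.03. These counts are near the 29.5% higher and 28.2% lower of all genes tested. ZUO1, whose protein sits at the ribosome exit, fell by 0.63, from 889 to 576 CPM, and JJJ1, which acts in ribosome assembly, fell by 0.72, both with adjusted p of at most 1.62e-05 in edgeR. JJJ3, needed for diphthamide synthesis, fell by 1.33, and SWA2, the auxilin of clathrin coats, rose by 0.39. DJP1 (0.23), named after its value was seen, was called higher with overlapping groups. The count of 2 fell to 1 without any 1 of 4 single libraries (mCh* replicates 1 and 2, mCh- replicates 1 and 2). That count also fell to 1 with the replicate number as a block. Of 10 J-domain genes of the endoplasmic reticulum and mitochondria 4 rose and 0 fell, with a median of 0.08. Mitochondrial MDJ1 (0.61) and MDJ2 (0.35) and the endoplasmic reticulum genes ERJ5 (0.48) and JEM1 (0.27) were these, and MDJ2 (adjusted p = 0.0403 in edgeR) kept its call without mCh* replicate 3 but not without any other single library. The MDJ2 call was also lost with limma-voom, with composition factors computed without ribosomal protein genes, and with the replicate number as a block. The JEM1 call was lost with the length and GC trend removed (0.14, adjusted p = 0.102 in edgeR).

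Of 7 cytosolic Hsp70 genes 2 rose and 3 fell, also near the shares over all genes. SSA1 went from 208 to 589 CPM, a rise of 1.5 in log2 units, and SSA4, the heat-induced form, rose by 1.05. The ribosome-bound SSB1 fell by 0.87, SSB2 by 0.73 and SSZ1, the partner of Zuo1, by 0.67. SSA2 (0.06) and SSA3 (0.21), named after their values were seen, were not called. SSA1 with SSA2 and SSB1 with SSB2 are near-identical copies, so the split of their counts is uncertain. Of 6 other exchange factor genes 3 rose and 2 fell, with a median of 0.13. SSE2 rose by 1.96, LHS1 of the endoplasmic reticulum by 0.47 and SIL1, also of that compartment and named after its value was seen, by 0.26. SNL1, anchored in the membrane of that compartment, fell by 0.49, and SSE1 fell by 0.43, from 741 to 549 CPM, but was not called with library sizes only (-0.18, adjusted p = 0.0901 in edgeR).

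Among 16 other genes of stress-induced chaperones and further heat shock proteins, 14 were tested. Of these 10 rose and 1 fell, with a median of 0.53. HSP78, the mitochondrial relative of HSP104, rose by 2.22, from a mean of 73.3 to one of 342 CPM, HSP82 by 1.78, HSP30 of the plasma membrane by 2.56 and HSP12, a membrane-protecting protein, by 1.95. HSP150, a secreted cell wall protein, fell by 0.46. Of 13 genes for ubiquitin ligases of misfolded proteins and their partners 7 rose and 2 fell, with a median of 0.20. ROQ1, which redirects the ligase Ubr1 to misfolded proteins, rose by 1.29, from 26.4 to 64.6 CPM, HUL5, a ligase at the proteasome, by 0.93 and HRD1, a ligase of the endoplasmic reticulum, by 0.56. SAN1, the nuclear ligase, fell by 0.65, and UBC6 by 0.20 (adjusted p = 0.0418 in edgeR). The UBC6 call was lost without any 1 of 4 single libraries (mCh* replicates 1 and 2, mCh- replicates 1 and 2) and turned to 0.06, not called, with library sizes only. It was also lost without the filter on low counts, with the replicate number as a block, and with the length and GC trend removed.

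Of 7 prion-forming proteins, several of which need Hsp104 to stay prions, 0 genes rose and 3 fell, with a median of -0.10, where 57.7% of all genes tested were called and 28.2% were lower. NEW1 fell by 0.68, SWI1 by 0.39 and SUP35, the translation termination factor whose gene lies 575 bases from HSP42, by 0.37. The SUP35 and SWI1 calls were lost with library sizes only (-0.11 and -0.14). Of 8 stress regulator genes 4 rose and 0 fell. HSF1, the heat shock factor, rose by 0.48 (99.4 to 138 CPM, adjusted p = 0.000125 in edgeR), GIS1 by 0.70, RPN4, the activator of proteasome genes, by 0.37 and SFL1, a repressor, by 0.29 (a call lost without mCh* replicate 1 or 2 or mCh- replicate 2). MSN2 (0.03), MSN4 (0.04), YAP1 (0.09) and SKN7 (-0.08) were not called, though SKN7 was called lower without mCh- replicate 3 (-0.21, adjusted p = 0.0449 in edgeR). With library sizes only MSN2 (0.29), MSN4 (0.29) and YAP1 (0.34) were called higher, near the shift of all genes of 0.25. These are transcript levels, and the activity of the factors was not measured.

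**Figure D5:**
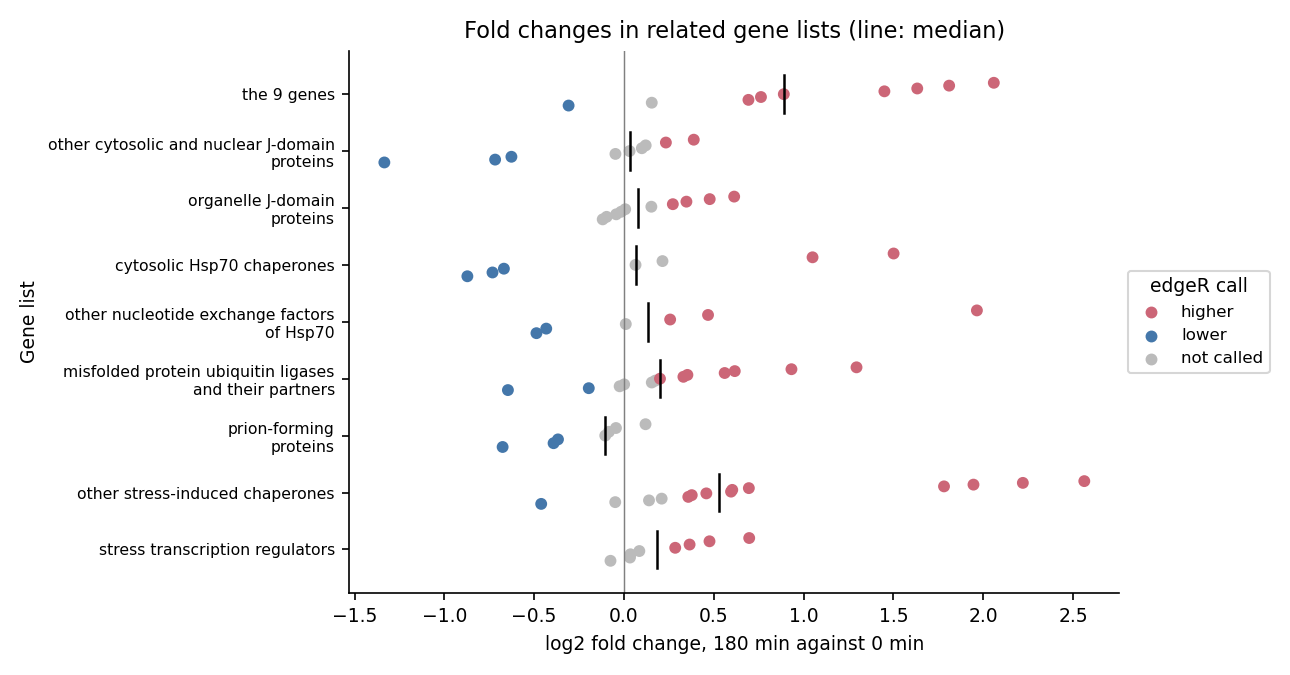
Log2 fold change of 180 min against 0 min for the 9 genes and 8 related gene lists, 1 point per tested gene, coloured by its call in edgeR, with a line at the median of each list. The 9 genes have a median of 0.89, against medians of -0.10 to 0.53 in the other lists.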

How the data were processed

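The authors deposited whole-number read counts per gene, not normalized, for 6 libraries. Per the submitters' processing notes, the tools were HTSeq 0.6.1p1, STAR 2.5.3a, cutadapt 1.10 and bcl2fastq 2.20.0.422, and the builds named are R64 and sacCer3. Per the labels the kit keeps strand. How strand and multiply matching reads were counted is not stated in the sources used here.

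Names, positions and sequences came from RefSeq R64. A locus tag matched 6047 of the 7127 identifiers and a symbol 41 more. The 1039 others held 0.469% of counts and kept the file's identifier. The count test was edgeR 4.0.16 under R 4.3.3 (TMM factors, default filter by group, quasi-likelihood F test, two-sided, Benjamini-Hochberg adjustment over 6220 genes), and CPM were computed from the counts. Intervals come from the same fit. They bound the mean change between the groups, with an error based on the spread between libraries, and not the range of single libraries. Ratios added 0.5 to each count and were tested with exact permutations in scipy 1.17.1. Protein identity came from global alignments in Biopython 1.88.

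The named genes are all 9, up to 4 called genes per related list with the smallest adjusted p, called genes opposite to the median of their list, all stress regulators and the 2 nearest profiles. The members and lists were chosen with earlier results of these data known. The 500-base window was chosen after the files were seen. Alternatives were other scalings and filters, DESeq2 1.42.0, limma-voom (limma 3.58.1), a replicate block, single libraries left out, and removal of a loess curve over length and GC, for which 85.4% of identifiers had values.

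The test was run on simulated counts with these means and library sizes, with 200 of 6220 genes changed. At 1.2-fold it found 16% of 50, at 1.5-fold 78% of 50, at 2-fold 84% of 50 and at 4-fold 96% of 50. Of its 142 calls 5 were false. Drawing used matplotlib 3.10.9.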

Additional observations from a re-analysis of the deposited data

How the results depend on the processing

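Of 135 values of the 9 genes under 15 alternatives, 132 kept their direction and their side of the threshold. The exceptions were YDJ1, not called with library sizes only (-0.055), and FES1, called with library sizes only (0.41) and with the length and GC trend removed (0.21). With library sizes only the 9 genes held 8 higher and 0 lower calls, and all genes 2996 higher and 969 lower, in place of 1833 and 1754. Leaving out single libraries gave 1597 to 1767 higher and 1546 to 1710 lower calls among all genes, and 7 and 1 among the 9 genes each time. The APJ1 to SIS1 log2 difference ranged from -0.34 to 0.012 over single libraries left out, turning without mCh* replicate 1. The other 5 ratios kept their direction in all 8 alternatives. Among related genes, signs turned for UBC6 (0.058) and SKN7 (0.18) with library sizes only, for MSN2 (-0.10), MSN4 (-0.044) and YAP1 (-0.029) with the length and GC trend removed, for MSN4 without mCh* replicate 3 (-0.013) or mCh- replicate 1 (range -0.037 to 0.123 over single libraries left out), and for MSN2 without mCh- replicate 3 (range -0.0007 to 0.051). Without length division 9 of 18 places in the order of levels moved. The mean of each group was subtracted from log2 CPM, gene by gene. The remaining deviations of same-numbered libraries had correlations of -0.0015, 0.0052 and -0.285 across 5735 genes. With only 3 libraries per group, these values cannot tell whether equal numbers mark the same experiment, so pairing by number stayed unknown. With the replicate number as a block, 1727 genes were called higher and 1663 lower, and 7 and 1 of the 9 genes. Changes of 1.2-fold were mostly missed in simulation. Far fewer genes were called there than in the data, which makes the Benjamini-Hochberg adjustment stricter. The simulated rate therefore cannot tell how often a change as small as that of FES1 is missed in these data.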
